A study of Mus musculus with 18 samples.

Results

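The genes described here are 10 genes of systemic iron handling in the mouse liver, taken by symbol from a table of 16245 genes: the hepcidin genes Hamp and Hamp2, the transferrin receptors Tfrc and Tfr2, transferrin (Trf), the iron exporter ferroportin (Slc40a1), ferritin heavy chain (Fth1), the iron sensor Hfe, the BMP ligand Bmp6 and its target Id1. All 10 were present and all 10 passed the filter on low counts. Bulk liver RNA was sequenced from 18 wild-type (WT) C57BL/6 mice (C57BL/6J in the methods), and every mouse had been placed on a NASH diet (an obesogenic diet that brings on fatty liver with inflammation and fibrosis) and housed at 29 °C from 8 weeks of age. Vehicle-treated mice (n = 6), mice given recombinant GDF15 under the skin once daily (n = 6) and pair-fed mice (n = 6) were compared, and all were housed singly. Pair-fed mice were offered the amount of food that the GDF15-treated mice had eaten the day before, so that the comparison of GDF15 with pair-feeding asks what GDF15 changed at a matched food intake. The labels list doses of 0.3, 1 and 5 nmol/kg without saying which mouse received which, and for these livers a single dose is given, as 1 nmol/kg in the text of the study and as 5 nmol/kg in a legend. The animals were male according to the methods of the study. GDF15 is a stress cytokine that lowers food intake through a receptor of the hindbrain, and the treatment was a dose of protein, not a change of the mouse Gdf15 gene. The tissue matched its label: all 10 hepatocyte markers, albumin among them, were detected in every group.

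Hepcidin is a peptide hormone made by hepatocytes that binds ferroportin on gut cells, macrophages and hepatocytes and has it degraded, so that less iron enters the plasma. Its transcription is driven by BMP ligands, mainly Bmp6 and Bmp2 from liver endothelial cells, acting through SMAD proteins with help from Hfe, Tfr2 and hemojuvelin, and by interleukin-6 acting through Stat3. Inside cells the iron regulatory proteins stabilise Tfrc mRNA and block ferritin translation when iron is scarce. Tfrc mRNA is therefore a common readout of the iron that a cell can use, and Id1 and Smad7 are common readouts of BMP signalling.

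Hamp and Hamp2 lie on the minus strand of mouse chromosome 7 (build mm10, the same assembly as GRCm38), Hamp at bases 30942368 to 30944032 and Hamp2 at 30922372 to 30924681 in the GENCODE annotation. They are copies of one gene: the aligned bases of their main transcripts (Hamp-201, 410 bases, and Hamp2-203, 437 bases) were 94.6% identical, and 60 of the 361 windows of 50 bases in Hamp-201 (16.6%) occur unchanged in Hamp2. The split of reads between them is therefore less certain than their sum. The bases in front of each start site are shown because they hold the elements through which the BMP and interleukin-6 inputs are known to act. Both runs are 5′ to 3′ from 250 to 11 bases before the RefSeq start site in GRCm38.p6, at chr7:30944040-30944279 and chr7:30924192-30924431 (minus strand), and the second lies within the span annotated for Hamp2. Capitals mark the BMP-responsive GGCGCC, its aligned counterpart in Hamp2, and the STAT element TTCNNNGAA. Both motifs read the same on either strand and do not overlap.
Hamp: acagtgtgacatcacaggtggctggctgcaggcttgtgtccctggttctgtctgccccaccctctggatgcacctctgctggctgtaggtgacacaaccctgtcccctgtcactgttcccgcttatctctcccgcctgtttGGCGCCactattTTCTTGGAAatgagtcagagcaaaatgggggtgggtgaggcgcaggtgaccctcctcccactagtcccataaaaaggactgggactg
Hamp2: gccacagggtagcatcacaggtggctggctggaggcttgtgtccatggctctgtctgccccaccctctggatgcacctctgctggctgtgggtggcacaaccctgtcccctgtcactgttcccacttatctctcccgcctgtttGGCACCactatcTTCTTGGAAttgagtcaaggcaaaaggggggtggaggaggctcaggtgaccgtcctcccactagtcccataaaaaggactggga

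The windows of 250 bases were 91.9% identical over 247 aligned bases. In Hamp the GGCGCC began 109 bases before the start site (position -109) and TTCTTGGAA at -97, and in Hamp2 the same TTCTTGGAA began at -94. The only substitution inside the GGCGCC was G145A, counted from 1 at the first printed base of Hamp. Over all 32851 RefSeq promoter windows of 300 bases, GGCGCC occurred in 11.9%, TTCNNNGAA in 8.3% and both in 0.645%. Of the 10 genes, 7 had a promoter entry (Hamp, Hamp2, Tfrc, Tfr2, Fth1, Hfe and Bmp6), with 11 windows in all. Besides Hamp and Hamp2, a match was found only in Tfrc, where one of its 2 windows held a GGCGCC at -89. These matches describe the letters of the windows and do not show that a factor bound there.

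Normalized counts, that is counts divided by each library's size factor, are used throughout, and levels of different genes are compared per kilobase of transcript. The ratios of Hamp to Hamp2 and of Tfrc to Fth1 given below are not corrected for length and serve only to compare groups. In the vehicle-treated mice transferrin was the most abundant of the 10 mRNAs, at 143028 ± 4547 normalized counts per kilobase (mean ± SD, n = 6), followed by Fth1 at 46413 ± 3375 and Hamp at 11466 ± 2679. Tfr2 (2367 ± 228) and Hamp2 (2239 ± 465) did not differ beyond their spread. Slc40a1 followed at 689 ± 37.5, then Hfe at 306 ± 8.67 and Id1 at 235 ± 64.0, the last pair separated by little more than the spread of Id1. Tfrc stood at 83.7 ± 12.5 and Bmp6, at 21.7 ± 4.46, was the lowest. In GDF15-treated mice the means were 42353 ± 19534 for Hamp and 39633 ± 3131 for Fth1, so the group means did not differ beyond their spread. The wide spread of Hamp includes GDF15 replicate 4, at 1873 normalized counts, with the other 5 mice at 17865 to 25151. Per kilobase, Hamp lay above Fth1 in those 5 mice and below it in replicate 4. The level of Trf is less certain than the others, because 79.8% of its windows of 50 bases are shared with the annotated gene Gm20425, which has no entry in the table.

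One library touches most of what follows. GDF15 replicate 4 stood apart from the rest of its group in 283 of 10883 genes (2.6%, against 0.322% to 2.28% for each other library within its own group). Among the GDF15-treated mice it had the lowest Hamp, Hamp2, Slc40a1, Bmp6 and Id1 and the highest Tfrc, Tfr2 and Trf. It also had the highest summed hepatocyte and erythroid markers of all 18 libraries and the lowest summed endothelial markers. No label sets it apart, it was kept in all main values, and results that rest on it are given with and without it.

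Hepcidin mRNA was higher after GDF15 than in either control group. In the vehicle-treated mice Hamp ranged from 2479 to 5327 normalized counts with a median of 5148, in the pair-fed mice from 1161 to 5549 with a median of 3366, and in the GDF15-treated mice from 1873 to 25151 with a median of 19131. In the GDF15 group 5 mice (replicates 1, 2, 3, 5 and 6) lay between 17865 and 25151, above all 12 controls, and replicate 4 at 1873 lay below every vehicle-treated mouse and within the pair-fed range. The log2 fold change of Hamp was 1.89 ± 0.47 (SE) against vehicle (3.69-fold, DESeq2 adjusted p = 5.10e-04) and 2.41 ± 0.47 against pair-feeding (5.33-fold, adjusted p = 7.39e-06). Without GDF15 replicate 4 the log2 values were 2.12 and 2.65. When only replicates 4 to 6 of every group were fitted, the rise of Hamp was 1.33 with adjusted p = 0.273 against vehicle and 2.02 with adjusted p = 0.0735 against pair-feeding.

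Hamp2 was higher too, with smaller fitted values than Hamp; the difference between the genes was not tested. Its normalized counts ran from 594 to 1152 in vehicle-treated mice (median 1030), from 188 to 1044 in pair-fed mice (median 789) and from 1155 to 3748 in GDF15-treated mice (median 2174). All 6 GDF15-treated mice lay above all 12 controls, although replicate 4, at 1155, cleared the highest vehicle-treated mouse by a few counts only. The log2 fold change was 1.22 ± 0.34 against vehicle (adjusted p = 0.00227) and 1.64 ± 0.34 against pair-feeding (adjusted p = 3.64e-05). With replicates 1 to 3 of every group alone, Hamp2 against vehicle was 1.36 with adjusted p = 0.0969.

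**Figure D1:**
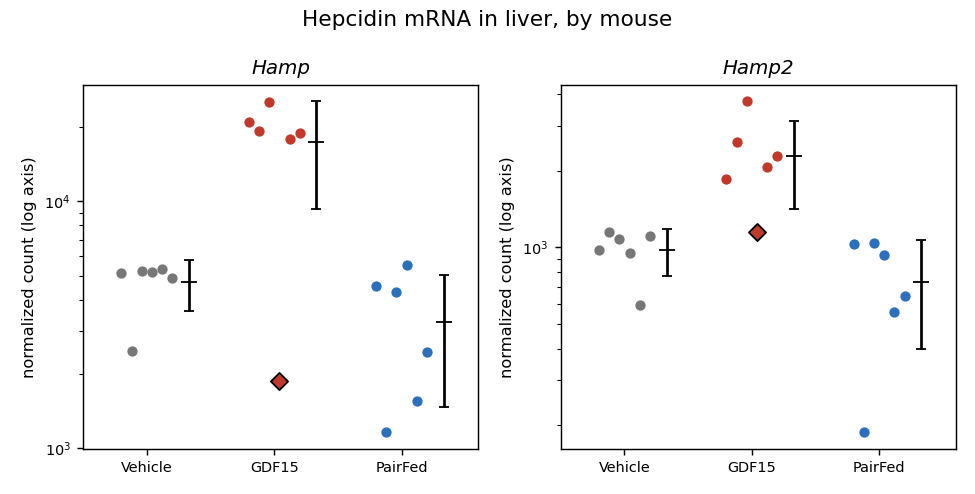
Normalized counts of Hamp and Hamp2 (log axes) in each mouse by group, with the mean and SD beside the points and GDF15 replicate 4 drawn as a diamond. Hamp in the GDF15 group reaches 25151 while replicate 4 sits at 1873, below every vehicle-treated mouse.

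Summed over both genes, which avoids the split of shared reads, hepcidin mRNA was 5679 ± 1012 normalized counts in vehicle-treated mice, 19649 ± 8719 in GDF15-treated mice and 3993 ± 2088 in pair-fed mice. The mean log2 value was 1.54 higher after GDF15 than with vehicle (two-sided exact permutation test, p = 0.0152, adjusted p = 0.0455 over 6 tests) and 2.23 higher than with pair-feeding (exact p = 0.0108, adjusted p = 0.0455). Pair-fed mice had a mean log2 value 0.69 below vehicle (value -0.69, exact p = 0.0779, adjusted p = 0.0935), which did not pass. Leaving out PairFed replicate 4 gave -0.87 with exact p = 0.0390. The number of Hamp counts per Hamp2 count was 5.17 ± 2.20 in vehicle-treated mice, 7.34 ± 3.22 in GDF15-treated mice and 4.54 ± 1.30 in pair-fed mice, and the lowest ratio of all 18 mice, 1.62, was that of GDF15 replicate 4.

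Across all genes, 33.3% of those tested passed adjusted p under 0.05 between GDF15 and vehicle, 27.1% between GDF15 and pair-feeding, and 0% between pair-feeding and vehicle. Against this background 4 of the 10 genes were called in the first comparison (Hamp, Hamp2 and Tfr2 higher, Fth1 lower) and 5 of 10 in the second (Tfrc lower in addition), where 15.8% and 13.3% of all genes were called higher and 17.5% and 13.8% lower. Leaving out 1 sample at a time, 27.1% to 33.3% and 22.8% to 28.5% of all genes were called. The share of the 10 was 40% beside 33.3% of all genes in the first comparison and 50% beside 27.1% in the second. Both shares come from only 10 genes and were not tested against those of all genes. Under the stricter rule of the study, which also asks for an absolute log2 fold change above 1, Hamp and Hamp2 were the 2 genes of the 10 called in each comparison, where 6.27% and 3.37% of all genes tested were called, 0.9% and 0.627% higher and 5.37% and 2.75% lower. The median log2 fold change of the 10 was 0.16 against vehicle and 0.19 against pair-feeding, beside 0.0024 and -8e-04 for all genes tested. Both comparisons use the same GDF15-treated mice, so they are not independent of each other.

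**Figure D2:**
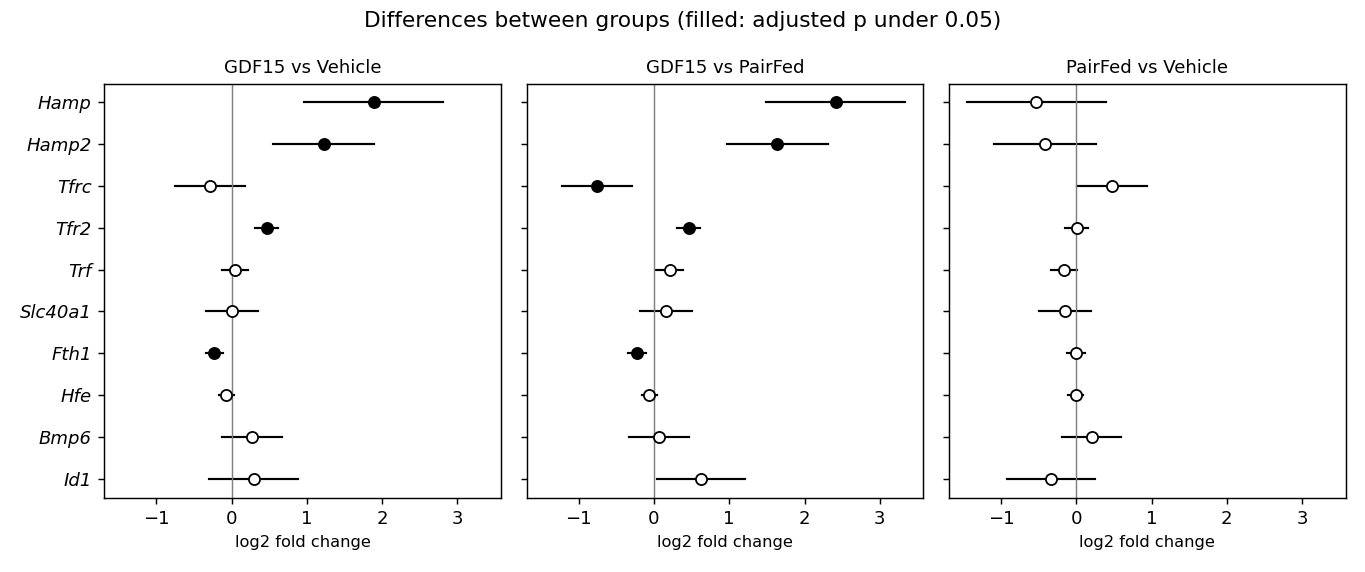
Log2 fold changes of the 10 genes (points) with 95% confidence intervals (lines) in the 3 comparisons, on a common axis, filled where the DESeq2 adjusted p was under 0.05. Hamp and Hamp2 lie farthest to the right in both GDF15 comparisons, and no point is filled between pair-feeding and vehicle.

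Of the receptors for transferrin, Tfr2 was higher after GDF15 than in both control groups and Tfrc was lower than with pair-feeding. Tfr2, the hepatocyte receptor that senses iron-loaded transferrin and feeds into hepcidin control, ranged from 6368 to 8139 normalized counts in vehicle-treated mice (median 7336), from 6186 to 8443 in pair-fed mice (median 7261) and from 9358 to 11610 in GDF15-treated mice (median 9879). All 6 GDF15-treated mice lay above all 12 others. For Tfr2 the log2 fold change was 0.47 ± 0.08 against vehicle (1.38-fold, adjusted p = 8.93e-08) and 0.46 ± 0.08 against pair-feeding (adjusted p = 1.75e-07). Tfr2 is a hepatocyte gene, and hepatocyte markers moved with it: 8 of 10 were called higher in each GDF15 comparison, and their summed normalized counts ranged from 2317760 to 2713870 in GDF15-treated mice against 1622990 to 2070720 in vehicle-treated and 1494100 to 2257440 in pair-fed mice. Of all genes 15.8% and 13.3% were called higher. When libraries were scaled to the hepatocyte markers, which shifted the median gene by -0.45 and -0.46 on the log2 scale, the Tfr2 difference was 0.02 (adjusted p = 0.827) and 0.0015 (adjusted p = 0.984). Scaled to endothelial markers, Tfr2 was 0.45 against vehicle (adjusted p = 0.0975) and 0.66 against pair-feeding (adjusted p = 0.00783). In bulk tissue, fewer cells of a type and less RNA per cell cannot be told apart.

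Tfrc, the receptor that brings transferrin-bound iron into most cells, ranged from 299 to 457 normalized counts in vehicle-treated mice (median 429), from 409 to 670 in pair-fed mice (median 581) and from 194 to 676 in GDF15-treated mice (median 268). In the GDF15 group 4 mice (replicates 1, 2, 3 and 6) lay at 194 to 272, below all 12 controls, replicate 5 at 409 lay among the vehicle-treated mice, and replicate 4 had the highest value of the 18. For Tfrc the fitted log2 fold change was -0.76 ± 0.24 against pair-feeding (adjusted p = 0.00811) and -0.28 ± 0.24 against vehicle (adjusted p = 0.378). Without GDF15 replicate 4 Tfrc was lower in both comparisons, by -0.61 against vehicle (adjusted p = 0.00364) and by -1.08 against pair-feeding (adjusted p = 4.55e-08). Without the 3 smaller pair-fed libraries the difference from pair-feeding was -0.65 with adjusted p = 0.142.

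Trf, which encodes the plasma carrier of iron, did not pass in any comparison. It ranged from 351210 to 379735 normalized counts in vehicle-treated mice (median 369552), from 306635 to 340798 in pair-fed mice (median 332244) and from 323289 to 530375 in GDF15-treated mice (median 355433). All 6 pair-fed mice lay below all 6 vehicle-treated mice, with a log2 fold change of -0.16 ± 0.09 whose unadjusted p was 0.0742 (adjusted p = 0.998). The spread used in that test includes GDF15 replicate 4, whose 530375 was the highest value by far, with the other GDF15-treated mice at 323289 to 363743. Against pair-feeding GDF15 gave 0.21 ± 0.09 (adjusted p = 0.0723), which passed when GDF15 replicate 2 was left out (0.25, adjusted p = 0.0266). Without GDF15 replicate 4 it was 0.09 against pair-feeding (adjusted p = 0.0744) and -0.07 against vehicle (adjusted p = 0.139). Scaled to hepatocyte markers, Trf was lower after GDF15, by -0.42 against vehicle (adjusted p = 1.39e-05) and by -0.27 against pair-feeding (adjusted p = 0.00582), values that include the shift of the median gene.

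Fth1, the ferritin subunit that oxidises iron for storage, was lower after GDF15, though not when libraries were scaled to macrophage markers. Its normalized counts ran from 38973 to 46654 in vehicle-treated mice (median 43549), from 40754 to 45184 in pair-fed mice (median 43641) and from 31819 to 39975 in GDF15-treated mice (median 36834). All 6 GDF15-treated mice lay below all 6 pair-fed mice, and 4 of 6 lay below every vehicle-treated mouse. Fitted, the log2 fold change was -0.23 ± 0.06 in both comparisons, with adjusted p = 8.67e-04 against vehicle and 0.00116 against pair-feeding. Its direction depended on the scale: scaled to hepatocyte markers it was -0.67 and -0.68, where the median gene lay at -0.45 and -0.46, and scaled to macrophage markers it was 0.23 (adjusted p = 0.290) and 0.19 (adjusted p = 0.368), where the median gene lay at 0.48 and 0.44. It was no longer called with replicates 1 to 3 of every group alone (-0.13, adjusted p = 0.201, and -0.12, adjusted p = 0.250) or, against pair-feeding, without the 3 larger pair-fed libraries (-0.19, adjusted p = 0.0508).

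Tfrc was also read against Fth1 within each mouse, as a ratio that is free of library scaling. Iron regulatory proteins act on ferritin at translation, so the ratio of these mRNAs is not a measure of their activity. There were 9.55 ± 1.62 Tfrc counts per 1000 Fth1 counts in vehicle-treated mice, 9.28 ± 5.16 in GDF15-treated mice and 13.2 ± 2.69 in pair-fed mice. The ratio was higher in pair-fed than in vehicle-treated mice, by 0.47 on the log2 scale (exact two-sided permutation p = 0.0238, adjusted p = 0.0476 over 6 tests). The difference between GDF15 and pair-feeding was -0.65 (exact p = 0.0779, adjusted p = 0.0935) and that between GDF15 and vehicle -0.18 (exact p = 0.587). Without GDF15 replicate 4, whose ratio of 18.7 was the highest of all mice, the former was -0.88 with exact p = 0.00866.

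Ferroportin mRNA (Slc40a1) spanned 2146 to 2455 normalized counts in vehicle-treated mice (median 2350), 1779 to 2526 in pair-fed mice (median 1943) and 1096 to 2978 in GDF15-treated mice (median 2652). Replicates 1, 2, 3 and 5 of the GDF15 group lay above all vehicle-treated and all pair-fed mice, whereas replicates 4 (1096) and 6 (1826) lay below every vehicle-treated mouse. Slc40a1 had a log2 fold change of 0.01 ± 0.18 against vehicle (adjusted p = 0.972) and 0.17 ± 0.18 against pair-feeding (adjusted p = 0.520). Without replicate 4 it was 0.16 (adjusted p = 0.337) and 0.31 (adjusted p = 0.0391). Ferroportin is most abundant in Kupffer cells, the macrophages of the liver, and of 10 macrophage markers 6 were called lower against vehicle and 5 against pair-feeding (Cd5l, Cd68, Csf1r, C1qa and C1qb in both, Adgre1 against vehicle only), with summed counts of 3262 to 6674 after GDF15, 4786 to 8904 in vehicle-treated and 4850 to 7748 in pair-fed mice. Of all genes 17.5% and 13.8% were called lower in these comparisons. The Kupffer cell markers Clec4f (0.15, adjusted p = 0.550), Vsig4 (-0.06, adjusted p = 0.891), Timd4 (1.03, adjusted p = 0.0646) and Marco (0.73, adjusted p = 0.513) were not called against vehicle. Scaled to all 10 markers, Slc40a1 was 0.43 higher than in vehicle-treated mice (adjusted p = 0.0674) and 0.55 higher than in pair-fed mice (adjusted p = 0.0279), where the median gene was shifted by 0.48 and 0.44. Hepcidin acts on the ferroportin protein, which was not measured here.

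**Figure D3:**
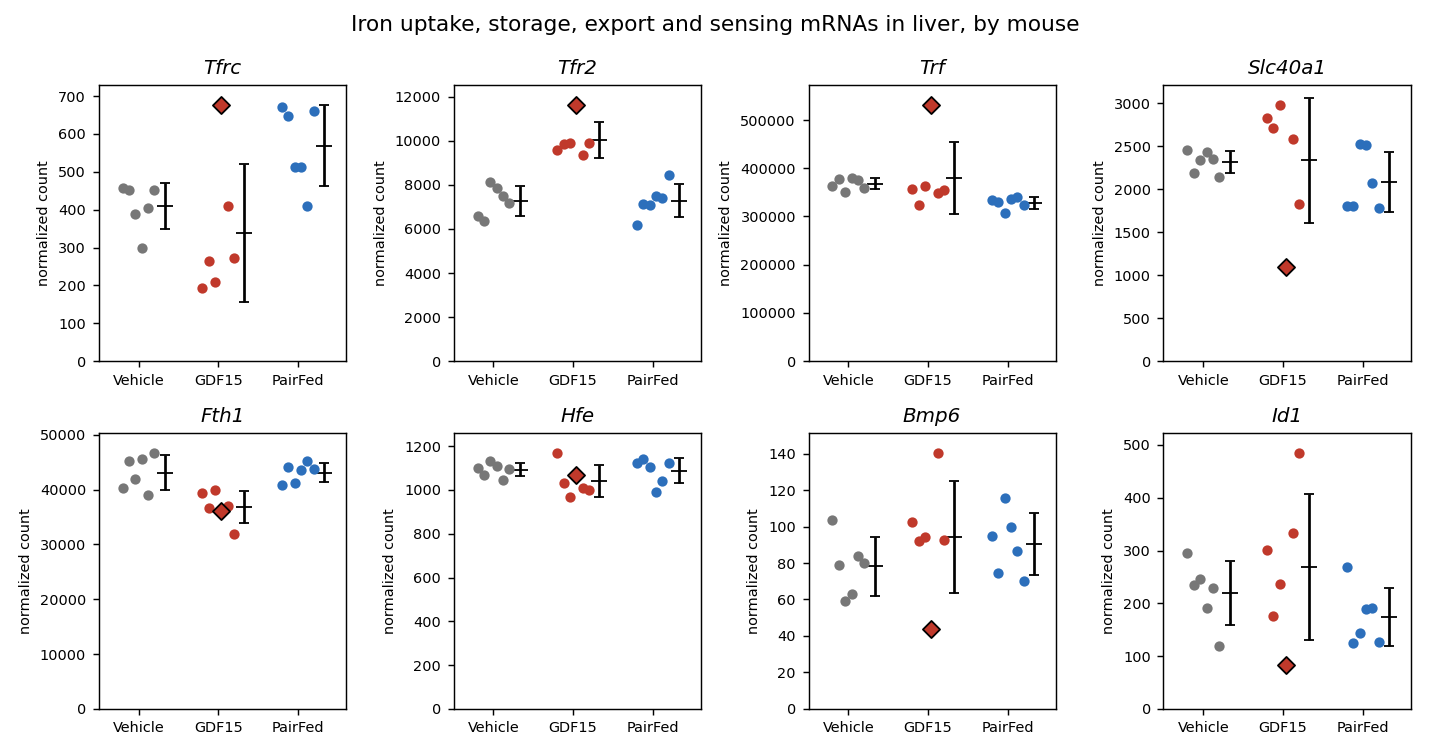
Normalized counts of the other 8 genes in each mouse by group (axes start at 0), with the mean and SD beside the points and GDF15 replicate 4 drawn as a diamond. Tfr2 lies above 9358 in every GDF15-treated mouse, Fth1 lies lower in that group (not when scaled to macrophage markers), and replicate 4 is at an edge of its group for Tfrc, Tfr2, Trf, Slc40a1, Bmp6 and Id1.

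Hfe and Bmp6 did not pass the test. Hfe, a membrane protein that reports iron-loaded transferrin to the hepcidin pathway, was at 1093 ± 31.0 normalized counts in vehicle-treated, 1041 ± 71.2 in GDF15-treated and 1087 ± 57.8 in pair-fed mice, with ranges that overlapped. Its log2 fold change was -0.07 ± 0.05 against vehicle (adjusted p = 0.324; 95% interval -0.17 to 0.03). Bmp6 was a low-count gene, at 59.4 to 104 normalized counts in vehicle-treated mice (median 79.6), 70.4 to 116 in pair-fed mice (median 90.7) and 43.7 to 140 in GDF15-treated mice (median 93.5). The log2 fold change of Bmp6 was 0.27 ± 0.20 against vehicle (adjusted p = 0.321; 95% interval -0.13 to 0.67) and 0.07 ± 0.20 against pair-feeding (adjusted p = 0.844). Without GDF15 replicate 4 Bmp6 was 0.41 (adjusted p = 0.0512) and 0.21 (adjusted p = 0.370), and without GDF15 replicate 5 it was 0.13 (adjusted p = 0.672) and -0.07 (adjusted p = 0.821).

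Id1, the BMP target, varied widely within each group. It ranged from 119 to 296 normalized counts in vehicle-treated mice (median 232), from 125 to 268 in pair-fed mice (median 166) and from 82.2 to 485 in GDF15-treated mice (median 269). Replicates 1, 5 and 6 of the GDF15 group lay above all 12 controls and replicate 4 lay below all of them. Id1 had a log2 fold change of 0.29 ± 0.30 against vehicle (adjusted p = 0.485) and 0.63 ± 0.30 against pair-feeding (adjusted p = 0.105). The latter passed without GDF15 replicate 4 (0.81, adjusted p = 0.00757), without PairFed replicate 1 (0.79, adjusted p = 0.0405), and when libraries were scaled to endothelial markers (0.71, adjusted p = 0.0329), which raised the median gene by 0.18. Without GDF15 replicate 6 it was 0.38 (adjusted p = 0.350). Against vehicle Id1 was 0.04 without replicate 6 (adjusted p = 0.932) and 0.48 without replicate 4 (adjusted p = 0.136). Endothelial marker sums ranged from 4433 to 7487 in GDF15-treated mice, the 4433 being replicate 4, and from 5842 to 8095 in pair-fed mice, and the part of these cells in the Id1 values was not tested otherwise.

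**Figure D4:**
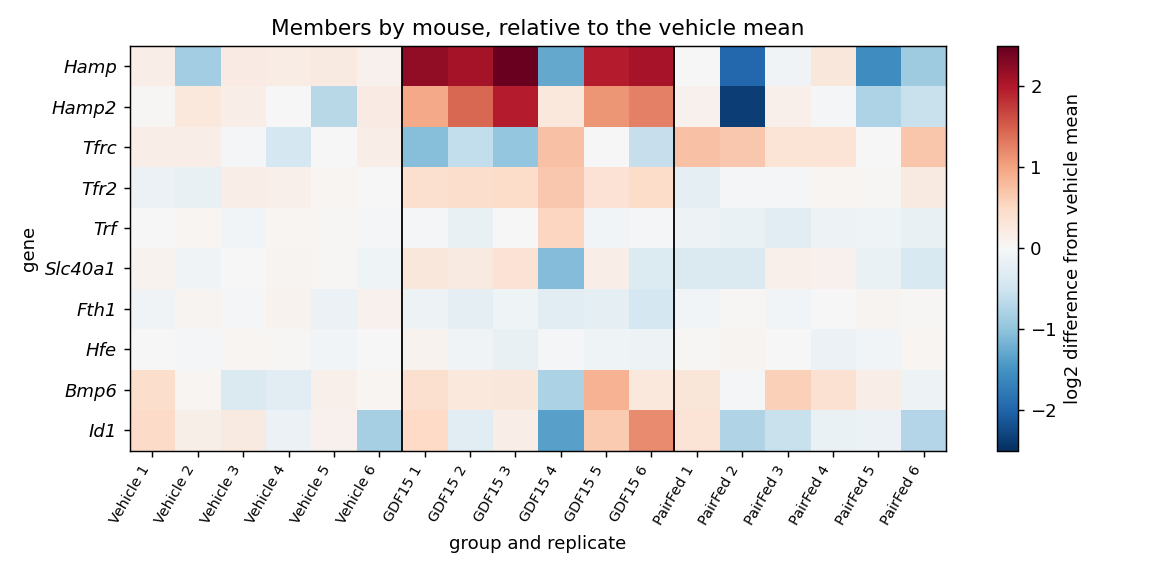
Log2 difference of each gene (rows) from its vehicle mean, on log2(normalized count + 1), in each mouse (columns, vertical lines between groups). Hamp and Hamp2 are darkest red in GDF15 replicates 1, 2, 3, 5 and 6, and the column of GDF15 replicate 4 has blue Hamp, Slc40a1, Bmp6 and Id1 beside red Tfrc, Tfr2 and Trf.

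Between pair-feeding and vehicle none of the 10 genes was called by DESeq2 or by edgeR at adjusted p under 0.05, and neither was any of the 16242 genes tested by DESeq2. Without adjustment 1 of the 10 genes and 718 of all genes (4.42%) had a DESeq2 p under 0.05. The former was Tfrc, higher in pair-fed mice by 0.47 on the log2 scale (95% interval 0.01 to 0.94). The log2 values of Hamp and Hamp2 were -0.53 ± 0.47 and -0.42 ± 0.34, with 95% intervals of -1.45 to 0.39 and -1.09 to 0.26. These intervals allow a fall of Hamp to under 0.5 of its vehicle level as well as no change. Pair-fed replicate 2 had the lowest Hamp (1161) and the lowest Hamp2 (188) of all 18 mice.

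Whether members varied together from mouse to mouse was examined in 6 pairs of genes, on deviations from group means over all 18 mice. Hamp2 and Hamp had a Pearson r of 0.682 (permutation p = 0.00273, adjusted p = 0.0164) and a Spearman rho of 0.612 (p = 0.0178, adjusted p = 0.0535), and the 2 genes share reads. The r was 0.646 (adjusted p = 0.180) without the 2 samples farthest from the median of Hamp2 and 0.686 (adjusted p = 0.0986) without GDF15 replicate 4. Bmp6 with Hamp (r = 0.718, p = 0.0211, adjusted p = 0.0633; rho = 0.589, p = 0.0104), Id1 with Hamp (r = 0.626, p = 0.0429, adjusted p = 0.0644; rho = 0.432, p = 0.0840) and Bmp6 with Id1 (r = 0.642, p = 0.0316, adjusted p = 0.0633; rho = 0.484, p = 0.0615) did not pass. These 3 relations rested on GDF15 replicate 4, without which r was 0.309, 0.177 and 0.282, and without the 2 farthest samples r was 0.406, 0.227 and 0.255. Tfr2 with Hamp (r = -0.341, p = 0.148, adjusted p = 0.178; rho = -0.22, p = 0.381) and Tfrc with Fth1 (r = -0.28, p = 0.377, adjusted p = 0.377; rho = -0.342, p = 0.188) did not pass, and without the 2 farthest samples r was 0.039 and 0.044.

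The genes around these 10 were read from 8 lists of iron biology with 77 genes, of which 76 were in the table and 75 were tested in the GDF15 comparisons. Against vehicle 22 were called higher and 10 lower (42.7%, against 33.3% of all genes), against pair-feeding 17 and 6 (30.7%, against 27.1%), and between pair-feeding and vehicle none, by DESeq2 or edgeR, with 6 of 76 at an unadjusted p under 0.05. The median log2 fold change was 0.05 and 0.10 in the GDF15 comparisons. When libraries were scaled to hepatocyte markers, 3 were higher and 47 lower against vehicle, and 4 higher and 47 lower against pair-feeding, so the split of directions depended on the scale; under it 65.8% and 67.4% of all genes were called. Hamp and Hamp2 stayed higher under that scale (Hamp 1.48, adjusted p = 0.00376, and Hamp2 0.80, adjusted p = 0.0382, against vehicle).

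**Figure D5:**
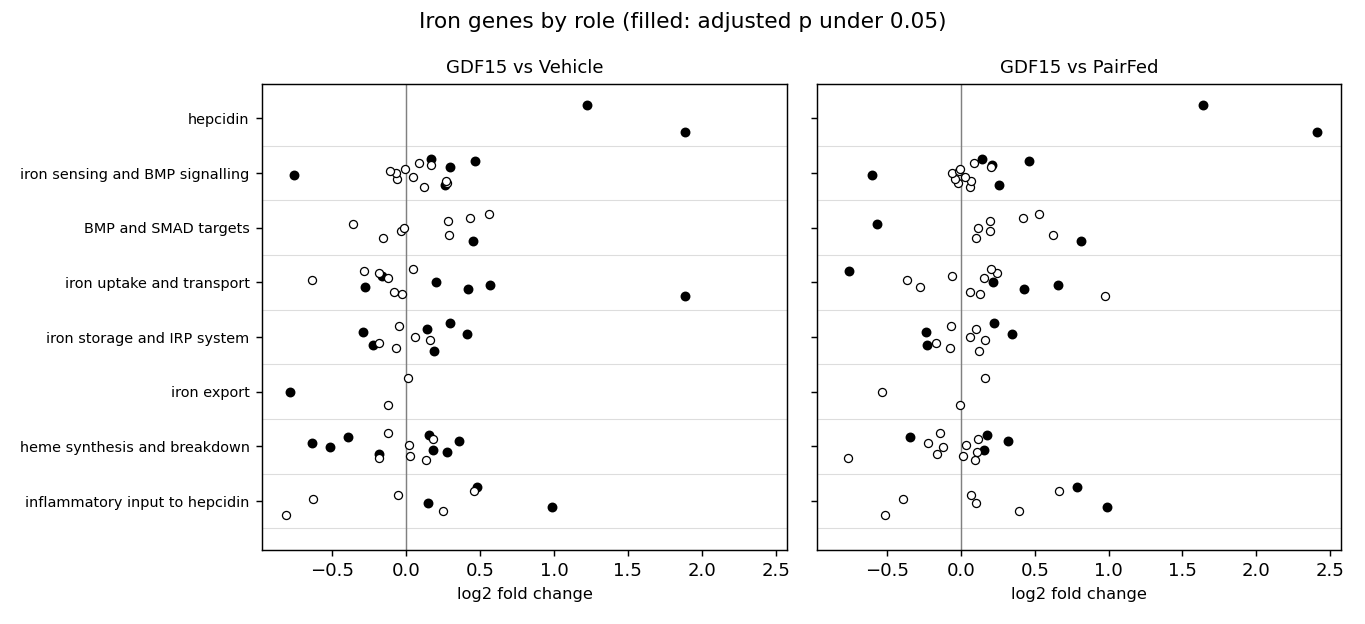
Log2 fold change of each tested gene of the 8 iron lists (rows by role; vertical offsets within a row only separate points), GDF15 against vehicle and against pair-feeding, filled where the DESeq2 adjusted p was under 0.05. The hepcidin row lies farthest right against pair-feeding, most other genes lie within 1 log2 unit of 0, and Cd163 at 1.89 is the exception against vehicle.

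Of the 15 tested genes of iron sensing and BMP signalling, 4 were called higher and 1 lower in each GDF15 comparison. This was 33.3% in each, beside 33.3% and 27.1% of all genes. The one that fell was Fkbp1a, which encodes FKBP12, a protein that holds BMP type I receptors silent. It ranged from 982 to 1135 normalized counts in GDF15-treated mice, below all vehicle-treated (1440 to 2073) and pair-fed mice (1372 to 2009), with log2 fold changes of -0.76 ± 0.11 (adjusted p = 4.70e-10) and -0.60 ± 0.11 (adjusted p = 2.05e-06). Smad1, a receptor-activated SMAD of the BMP pathway, was 0.30 ± 0.12 higher than in vehicle-treated mice (adjusted p = 0.0448) and 0.20 ± 0.12 against pair-feeding (adjusted p = 0.209), and was no longer called against vehicle without GDF15 replicate 4 (0.29, adjusted p = 0.0718). Tmprss6, the protease that cuts hemojuvelin and restrains hepcidin, rose by 0.17 ± 0.04 (adjusted p = 2.04e-04) and 0.14 ± 0.04 (adjusted p = 0.00217). The hemojuvelin gene Hjv was -0.11 ± 0.07 (adjusted p = 0.246) and -0.01 ± 0.07 (adjusted p = 0.912), and Bmp2, the other endothelial ligand, 0.28 ± 0.16 (adjusted p = 0.191) and -0.02 ± 0.16 (adjusted p = 0.959). Without GDF15 replicate 4 Bmp2 was 0.38 (adjusted p = 0.0380) and 0.09 (adjusted p = 0.702). Tmprss6, Hjv and Bmp2 are named outside the rule for named genes, after their values were seen. The erythroid hepcidin suppressor Erfe, also named outside that rule, was at the limit of detection, with at most 2.27 normalized counts in any library.

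Among 9 BMP and SMAD target genes 1 was called against vehicle (11.1%) and 2 against pair-feeding (22.2%), below the 33.3% and 27.1% of all genes. Both shares rested on GDF15 replicate 4 and were higher without it. Atoh8, a transcription factor known as a BMP target in hepatocytes, rose by 0.45 ± 0.18 against vehicle (adjusted p = 0.0373) and by 0.82 ± 0.18 against pair-feeding (adjusted p = 8.22e-05). Its normalized counts spanned 286 to 677 after GDF15, 315 to 489 with vehicle and 228 to 389 with pair-feeding, so the groups overlapped. Id4, also named outside the rule for named genes, was lower against pair-feeding (-0.56 ± 0.22, adjusted p = 0.0368), but not without GDF15 replicate 4 (-0.47, adjusted p = 0.0951). Smad7, the inhibitory SMAD induced by BMP signalling, was 0.43 ± 0.22 (adjusted p = 0.111) and 0.42 ± 0.21 (adjusted p = 0.133), and without GDF15 replicate 4 was 0.57 (adjusted p = 0.0102) and 0.56 (adjusted p = 0.0133). Without that mouse Smad6 was also called against vehicle (0.40, adjusted p = 0.0318) and Id1 against pair-feeding (0.81, adjusted p = 0.00757). Atoh8 stayed called in both comparisons. In those fits 31.5% and 26.9% of all genes were called. Smad6 is named after its values were seen.

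In the list of 13 uptake and transport genes 4 were higher and 2 lower against vehicle, and 3 higher and 1 lower against pair-feeding. These shares were 46.2% and 30.8%, beside 33.3% and 27.1% of all genes. Slc39a14 (ZIP14), the hepatocyte importer of iron that is not bound to transferrin, rose by 0.57 ± 0.09 (adjusted p = 6.08e-08) and 0.66 ± 0.09 (adjusted p = 3.00e-10). It spanned 4861 to 6639 normalized counts after GDF15, above all vehicle-treated (3537 to 4350) and pair-fed mice (3207 to 4207). Cd163, the macrophage receptor for haemoglobin bound to haptoglobin, rose by 1.89 ± 0.53 against vehicle (adjusted p = 0.00225), from a range of 2.08 to 85.0 to one of 78.3 to 220 normalized counts, while the macrophage markers that were called, described above, were lower. Against pair-feeding, where mice had 28.0 to 101, Cd163 was 0.98 ± 0.53 (adjusted p = 0.157). The haem carrier hemopexin (Hpx) and haptoglobin (Hp) were not called (-0.08, adjusted p = 0.790, and -0.03, adjusted p = 0.940, against vehicle), but the highest values of both, 182803 and 172077, were in GDF15 replicate 4, without which they were -0.42 (adjusted p = 1.28e-04) and -0.34 (adjusted p = 0.0262). Without that mouse Tfrc, Hpx and Hp joined the genes called lower against vehicle. Slc11a2 (-0.32, adjusted p = 0.0296) and Hpx (-0.27, adjusted p = 0.0188) joined those called lower against pair-feeding. Slc39a8 was no longer called higher in either (0.19, adjusted p = 0.0810, and 0.21, adjusted p = 0.0647). The balance of directions in this list therefore depended on GDF15 replicate 4. Hpx, Hp, Slc11a2 and Slc39a8 are named after their values were seen.

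Of 11 genes of iron storage and the iron regulatory protein system, 4 were higher and 2 lower against vehicle, and 2 and 2 against pair-feeding. These shares were 54.5% and 36.4%, beside 33.3% and 27.1% of all genes. Ireb2, which encodes iron regulatory protein 2, rose by 0.41 ± 0.10 (adjusted p = 6.51e-04) and 0.35 ± 0.10 (adjusted p = 0.00555). Pcbp2, an iron chaperone, rose by 0.30 ± 0.07 (adjusted p = 2.15e-04) and 0.22 ± 0.07 (adjusted p = 0.00815). The ferritin light chain Ftl1 (named after its values were seen) was -0.18 ± 0.08 (adjusted p = 0.0605) and -0.16 ± 0.08 (adjusted p = 0.109), on the same side as Fth1. Of the 3 export genes Heph was lower against vehicle (-0.79 ± 0.25, adjusted p = 0.00722) at a mean of 32.7 normalized counts, and none was called against pair-feeding. Heph is named outside the rule for named genes, since its mean was too low.

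Among 14 genes of haem synthesis and breakdown 4 were higher and 4 lower against vehicle, and 3 and 1 against pair-feeding. These shares were 57.1% and 28.6%, beside 33.3% and 27.1% of all genes. Hmox1, the inducible haem oxygenase, fell by 0.64 on the log2 scale (-0.64 ± 0.21, adjusted p = 0.00988) against vehicle and was -0.22 ± 0.21 against pair-feeding (adjusted p = 0.462). Flvcr1, a haem exporter, was -0.51 ± 0.13 against vehicle (adjusted p = 5.32e-04) and -0.12 ± 0.13 against pair-feeding (adjusted p = 0.544). Whether the GDF15 effects on these 2 genes differed between the controls is the comparison of pair-feeding with vehicle, in which neither passed (-0.42 and -0.40, adjusted p = 0.998 and 0.808). Their unadjusted DESeq2 p-values were 0.0448 and 0.00124, where 4.42% of all genes had one under 0.05. The 95% intervals, -0.82 to -0.01 and -0.64 to -0.16, lay below 0, so lower levels with pair-feeding alone are not excluded. Of 8 tested genes of the inflammatory input to hepcidin 3 were higher against vehicle (37.5%) and 2 against pair-feeding (25%), near the shares of all genes called. Il6ra, the interleukin-6 receptor subunit, rose by 0.99 ± 0.29 in both (adjusted p = 0.00411 and 0.00513). Its range of 1168 to 2066 normalized counts after GDF15 overlapped with vehicle (530 to 1251) and pair-feeding (460 to 1545). Stat3, the transcription factor of that pathway, rose by 0.48 ± 0.15 (adjusted p = 0.00578) and 0.79 ± 0.15 (adjusted p = 2.80e-06), and all 6 GDF15-treated mice (2376 to 4902) lay above all 6 pair-fed mice (1745 to 2277). Its target Socs3, named after its values were seen, did not pass (0.46 ± 0.42, adjusted p = 0.429, and 0.66 ± 0.42, adjusted p = 0.247).

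Markers of other cells moved with treatment, and apart from the scalings given above their part in these results was not tested. Of 9 stellate cell markers 8 were lower against vehicle and 7 against pair-feeding, and of 5 cholangiocyte markers 5 and 1. Of all genes 17.5% and 13.8% were called lower in these comparisons. Of 5 erythroid markers in the table none was called by DESeq2 in any comparison. No marker of these lists was at 0 in any group. Library totals ranged from 16508864 to 35301853 counts, and 3 counts, taken as the floor of detection, corresponded to 0.0850 to 0.182 CPM. The samples are separate mice of a group, and nothing in the labels says in which cages or on which days they were treated, so p-values measure the spread between these mice.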

How the data were processed

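Per the labels and the methods of the study, total RNA from liver was made into libraries with a directional kit, reads of 18 libraries were trimmed with Trim Galore and quantified with Salmon, and the authors deposited 1 table with an estimated count for each symbol and library, in whole numbers and without scaling to depth. Tool versions and the annotation are not given in the sources used here; the labels give the build as mm10.

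Groups and replicate numbers came from the sample titles. The whole table of 16245 genes (lowest row total 5) and all 18 samples entered one fit in DESeq2 1.42.0 (under R 4.3.3) with its default size factors and group as its sole factor, and the Wald test was followed by independent filtering. Genes were called at a Benjamini-Hochberg adjusted p under 0.05, and adjusted p-values given without another name are from this fit or a refit of it. Fold changes were not shrunken. Library totals of 16508864 to 35301853 counts set the floor of 3 counts, which covers counting error only, because the reads carry no molecular identifiers. The sum of Hamp and Hamp2 and the ratio of Tfrc to Fth1 were compared on a log2 scale by exact two-sided permutation over 924 splits (smallest p 0.00216), and correlations by 100000 permutations on log2(normalized count + 1). The procedure was tested on simulated data.

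Members, lists, tests and alternatives were chosen with earlier results of these data known. Named genes were the 10 members, up to 2 further genes of each iron list with the largest absolute fold change against vehicle among called genes averaging 50 or more normalized counts, and the 5 genes with the highest Pearson r with Hamp or Id1. Markers of cell types were fixed lists. Alternatives were edgeR (version 4.0.16, quasi-likelihood, TMM, 12992 genes kept), TMM size factors, size factors from cell type markers, filters on low counts, thinning to equal depth, a replicate block, subsets of replicates or libraries and leaving out each sample. The values of the further iron genes and of the correlations without GDF15 replicate 4, and most member values scaled to macrophage or endothelial markers, were added after the data were seen. Transcripts and gene positions came from GENCODE vM21 and promoters from RefSeq (GRCm38.p6), searched with Python 3.11.15 and Biopython 1.88.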

Additional observations from a re-analysis of the deposited data

Results flagged for a closer look

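Of 36 groups of 6 mice tested with Dixon's criterion, 7 held a sample whose gap to its nearest neighbour exceeded the 95% critical share of the group's range. Chance alone would give about 1 in 20, or 1.8 of 36. The groups are not independent, since 4 of the 7 come from 1 mouse and the sum repeats its parts. In GDF15 replicate 4 these were Hamp, the lowest of its group at 1873 normalized counts, the sum of Hamp and Hamp2, the lowest at 3027, Tfr2, the highest at 11610, and Trf, the highest at 530375. In the vehicle group the lowest Hamp (2479) and the lowest sum of Hamp and Hamp2 (3631) were those of replicate 2, and the lowest Hamp2 (594) was that of replicate 5. Apart from GDF15 replicate 4, no sample of the GDF15 or pair-fed groups stood out for these genes.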

How the results depend on the processing

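Of the alternatives to the values that answer a comparison, 222 were the same, 13 moved, 9 were weaker and 2 stronger. For a tested difference, the same means an unchanged direction and side of the threshold. For a count of called genes or pairs it means only a count within a set factor of the main one. For the fold changes of single members, 656 were unchanged in direction and side of the threshold, 52 moved (uncalled values that changed sign), 16 were stronger, 15 weaker and 4 reversed. With the study's fold-change threshold, 2 members and 3 iron genes were called against vehicle and 2 and 2 against pair-feeding. Scaling to hepatocyte markers reversed Trf (-0.42 against vehicle and -0.27 against pair-feeding) and called 50 and 51 iron genes; it lowers every log2 value by about the shift of the median gene (-0.45 and -0.46). Scaling to macrophage markers raises the median gene by 0.48 and 0.44, and under it 51% and 44.9% of all genes were called. It reversed Fth1 (0.23 and 0.19), ended the call of Tfrc against pair-feeding (-0.24) and called Trf (0.55 and 0.67), Bmp6 against vehicle (0.75) and Id1 and Slc40a1 against pair-feeding (1.11 and 0.55). Scaling to endothelial markers, under which 12.7% and 12.4% of all genes were called, ended the calls of Tfr2 against vehicle, Fth1 in both comparisons (-0.25 and -0.04) and Tfrc against pair-feeding (-0.48). With replicates 4 to 6 only, where 18.9% and 16.7% of all genes were called, 16 iron genes were called against vehicle and 3 members against pair-feeding, the sum of Hamp and Hamp2 differed by 0.85 (exact p = 0.400) and 1.64 (p = 0.300), and the Tfrc to Fth1 ratio by 0.47 (p = 0.400) and 0.048 (p = 1.00). With replicates 1 to 3 only, the sum differed by 2.23 and 2.83 (exact p = 0.1 each). The ratio of pair-fed to vehicle-treated mice was 0.50 with replicates 1 to 3 (exact p = 0.1) and 0.43 with replicates 4 to 6 (exact p = 0.300); 3 against 3 cannot go below 0.1. No pair of members passed with Spearman's rho, without the 2 samples farthest from the median, or without GDF15 replicate 4 (0 in each). Leaving out 1 sample at a time, the sum differed by -0.87 to -0.42 between pair-feeding and vehicle and the ratio by -0.88 to -0.50 between GDF15 and pair-feeding, called members numbered 4 to 5 and 5 to 7, and called iron genes 24 to 36 and 20 to 27. In these fits 27.1% to 33.3% and 22.8% to 28.5% of all genes were called. Replicate numbers gave no clear pairing of the mice: same-numbered mice correlated at -0.22 to 0.27, -0.16 to 0.18 and -0.0068 to 0.52 in the 3 comparisons, and 1, 2 and 1 of 6 correlated best with their own number. The mean was 0.0044, 0.0266 and 0.1707 for the same number and 6e-04, -0.0054 and -0.0346 for other numbers. The gap was widest between pair-fed and vehicle-treated mice. With a replicate block, where 30.7%, 26.6% and 0.0185% of all genes were called, members called were 4, 5 and 0 as without it, and iron genes 27, 22 and 0 against 32, 23 and 0 without it. The unchanged differences of 1.54 and 2.23 (sum) and 0.47 (ratio, pair-fed against vehicle) had p = 0.0625 by an exact sign-flip permutation test. The cause of the differences between subsets of replicates was not tested.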

Other observations

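The genes whose levels were most like those of Hamp over the 18 samples, among the 10883 genes whose normalized counts averaged 50 or more, were Bcl7a (Pearson r = 0.900), Notum, a secreted inhibitor of Wnt ligands (0.893), Slco1a6, an organic anion transporter (0.887), Nrn1 (0.879) and Pdcd2l (0.878). These values include the difference between groups, and on deviations from group means r was 0.827, 0.876, 0.837, 0.806 and 0.777, with GDF15 replicate 4 included. Against vehicle all 5 were higher by DESeq2, from 0.20 for Pdcd2l (adjusted p = 0.0463) to 0.66 for Notum (adjusted p = 2.85e-07) on the log2 scale.

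For Id1 they were Smad7 (r = 0.852), the inhibitory SMAD, Bcor (0.791), a transcriptional corepressor, Unc93a2 (0.765), Serpine2 (0.746) and Klhl15 (0.741). On deviations from group means r was 0.877, 0.844, 0.806, 0.752 and 0.721. These genes were picked as the most alike of many, the samples share their groups and libraries, and the values are a description.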
